A study of Mus musculus with 6 samples.

Results

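Kupffer cell and macrophage markers are the 35 genes described here, of 34745 genes in the deposited table, and each was taken by its gene name. They were measured by RNA sequencing in mice labelled Sox9HKO (HKO, 3 libraries) and in mice labelled Sox9f/f (WT, 3 libraries), which carry floxed copies of Sox9, a transcription factor gene of bile duct cells and injured hepatocytes. All animals were 12 weeks old, on C57BL/6, and all had a partial hepatectomy (PHx), the removal of part of the liver, 48 h before collection, so there is no unoperated group. The Cre driver of the HKO mice, the sex of the animals and whether a library is 1 mouse or a pool are not given in the sources used here, and p-values measure only the spread between these libraries. Liver is the labelled tissue and hepatocyte the labelled cell type, while the series text speaks of primary hepatocytes, so how many macrophages stayed with the cells of each library is not known and cannot be told apart from a change in the liver.

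Kupffer cells are the resident macrophages of the liver sinusoids, where they take up bacteria, dying cells and old red cells. In mouse they are seeded before birth and are known to renew in place, while circulating monocytes can enter an injured liver and replace them. Clec4f and Timd4 mark the resident cells in mouse, and Ccr2, Cx3cr1 and Ly6c2 mark monocytes and the macrophages they give rise to. After PHx, Kupffer cells are a known source of cytokines that act on hepatocytes.

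The 5 markers of resident Kupffer cells rose in HKO, and 1 pan-macrophage gene, Mpeg1, fell. The 3 monocyte-derived markers Ccr2, Cx3cr1 and Ly6c2 stayed close to the lower limit of detection in both groups. All 5 resident markers were called higher in HKO, with log2 fold changes (HKO minus WT) between 0.61 and 1.29. Of the 35 markers, 29 passed the filter on low counts, and of these 19 were called higher, 1 lower and 9 neither way, by edgeR's quasi-likelihood test at an adjusted p below 0.05. Over all 12556 genes tested, 12.1% were called higher and 11.2% lower in HKO. The median log2 fold change was 0.85 over the 29 tested markers and 0.02 over all tested genes. A marker can pass the filter only through the group where it is high, which favours markers that differ, so these shares cover the tested markers and not all 35. Among the 19 called higher, the fewest counts in any WT library were 27 (Fcer1g in WT 1). In bulk RNA, more cells of a type and more RNA per cell cannot be told apart.

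The libraries held 16659778 to 21168233 counts, of which the 35 markers took between 0.0451% and 0.0670%. Sox9 itself averaged 5.14 ± 1.06 CPM over the HKO libraries and 10.6 ± 3.41 CPM over the WT libraries (SD, n = 3 each; log2 fold change -1.05, adjusted p = 0.0284). CPM stands for counts scaled to library size, here by the TMM method. The library HKO 2 stood apart and had 25.9% of its counts in mitochondrial genes, against 12.1% and 12.3% in HKO 1 and HKO 3 and 13.4% to 16.3% in WT. Its summed endothelial markers were at 872 CPM, against 284 and 328 CPM in HKO 1 and HKO 3 and 185 to 274 CPM in WT. Its summed stellate cell markers were at 701 CPM, against 200.2 and 210.1 CPM in HKO 1 and HKO 3 and 115 to 171 CPM in WT. In both lists every HKO sum was above every WT sum. For the counts of called genes that follow, the shares over all tested genes were 12.1% higher and 11.2% lower in HKO. Of 14 tested endothelial markers 1 was called higher and none lower (median log2 fold change 1.09, and 0.38 without HKO 2). Of 13 tested stellate markers 5 were called higher and none lower (median 1.37, and 0.53 without HKO 2). The 5 resident Kupffer markers had a median of 1.17, and 1.37 without HKO 2. Of the endothelial and stellate lists, 1 marker was at 0 in a library (Acta2 in HKO 1), and none was at 0 in all 6. Of 9 tested hepatocyte markers 2 were called higher in HKO (Pck1 and Cps1), 1 lower (Serpina1a) and 6 neither way, Alb among them (log2 fold change -0.43, adjusted p = 0.219), and the median log2 fold change was 0.12. RNA of macrophages, endothelial and stellate cells was present in every library as well.

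The sequences just before the starts of the 5 resident and 3 monocyte-derived genes and of Mpeg1 are shown because these are the genes on which the comparison turns: the first 5 were called higher, the next 3 were near the detection limit, and Mpeg1 was called lower. Each is the 250 bases before the RefSeq start on GRCm38.p6, 5′ to 3′ on the gene's own strand. Capitals mark GAGGAA or its reverse complement TTCCTC, the core letters bound by PU.1, the Ets-family factor that directs macrophage gene expression. The windows are chr6:83656117-83656366 (minus) for Clec4f, chr11:46810549-46810798 (plus) for Timd4, chr1:120505025-120505274 (minus) for Marco, chrX:96293439-96293688 (minus) for Vsig4, chr6:124304401-124304650 (plus) for Cd163, chr9:124101933-124102182 (plus) for Ccr2, chr9:120068297-120068546 (minus) for Cx3cr1, chr15:75111972-75112221 (minus) for Ly6c2 and chr19:12460520-12460769 (plus) for Mpeg1.
Clec4f: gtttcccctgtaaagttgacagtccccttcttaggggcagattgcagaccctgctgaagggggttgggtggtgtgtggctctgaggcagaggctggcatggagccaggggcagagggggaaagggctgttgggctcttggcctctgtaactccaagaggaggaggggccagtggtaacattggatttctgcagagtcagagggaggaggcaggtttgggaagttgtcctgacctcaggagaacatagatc
Timd4: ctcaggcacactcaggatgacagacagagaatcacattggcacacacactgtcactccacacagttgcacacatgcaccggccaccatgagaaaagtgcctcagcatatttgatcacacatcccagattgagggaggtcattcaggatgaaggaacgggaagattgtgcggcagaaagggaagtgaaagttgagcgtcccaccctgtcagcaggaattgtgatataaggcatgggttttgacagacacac
Marco: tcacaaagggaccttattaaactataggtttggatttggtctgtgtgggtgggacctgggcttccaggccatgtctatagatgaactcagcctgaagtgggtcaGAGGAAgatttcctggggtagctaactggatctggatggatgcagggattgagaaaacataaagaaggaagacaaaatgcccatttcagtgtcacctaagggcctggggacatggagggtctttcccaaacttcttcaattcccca
Vsig4: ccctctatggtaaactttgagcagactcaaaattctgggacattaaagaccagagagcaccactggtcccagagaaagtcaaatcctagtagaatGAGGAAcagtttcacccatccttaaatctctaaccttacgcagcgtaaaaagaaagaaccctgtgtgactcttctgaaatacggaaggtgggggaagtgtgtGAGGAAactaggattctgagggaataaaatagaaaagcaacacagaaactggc
Cd163: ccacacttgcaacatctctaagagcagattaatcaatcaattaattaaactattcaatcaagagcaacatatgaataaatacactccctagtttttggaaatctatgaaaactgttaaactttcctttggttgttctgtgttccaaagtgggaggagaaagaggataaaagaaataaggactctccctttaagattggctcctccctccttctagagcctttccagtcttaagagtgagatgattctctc
Ccr2: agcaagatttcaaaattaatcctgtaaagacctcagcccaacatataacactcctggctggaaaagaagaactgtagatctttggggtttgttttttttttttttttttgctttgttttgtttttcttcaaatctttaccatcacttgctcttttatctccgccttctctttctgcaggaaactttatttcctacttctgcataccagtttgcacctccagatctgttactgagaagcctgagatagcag
Cx3cr1: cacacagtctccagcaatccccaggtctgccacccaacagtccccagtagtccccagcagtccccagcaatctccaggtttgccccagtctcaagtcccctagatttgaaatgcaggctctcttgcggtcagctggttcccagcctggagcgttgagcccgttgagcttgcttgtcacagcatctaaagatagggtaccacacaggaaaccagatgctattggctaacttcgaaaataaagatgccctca
Ly6c2: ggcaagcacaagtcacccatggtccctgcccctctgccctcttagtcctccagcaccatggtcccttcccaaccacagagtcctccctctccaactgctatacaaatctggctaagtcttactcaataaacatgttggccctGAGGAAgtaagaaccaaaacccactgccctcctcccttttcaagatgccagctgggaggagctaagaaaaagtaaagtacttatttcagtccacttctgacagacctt
Mpeg1: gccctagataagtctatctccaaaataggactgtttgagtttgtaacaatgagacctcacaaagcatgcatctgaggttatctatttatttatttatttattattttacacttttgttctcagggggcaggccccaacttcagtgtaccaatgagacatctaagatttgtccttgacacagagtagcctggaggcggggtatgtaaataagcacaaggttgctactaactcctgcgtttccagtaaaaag
The core stood once before Marco and Ly6c2, at 2 places before Vsig4, and not in the windows of Clec4f, Timd4, Cd163, Ccr2, Cx3cr1 and Mpeg1. Of the 28 markers with a RefSeq entry, 14 (50%) held GAGGAA on either strand, against 23.3% of all 32851 windows of this length. The longer GAGGAAGT, which contains GAGGAA, was in 2 of the 28 (7.14%), Ly6c2 and C1qc, against 2.44% of all windows. TGGGAA, the letters bound by the Notch factor RBPJ, was in 8 of 28 (28.6%, against 21.6%), and CACGTG, an E-box of the MITF and TFE family, was in none (against 6.02%). A match is a description of the letters only. Orientation was checked by looking for a short stretch after the RefSeq start in the gene's transcripts. This stretch was not found for Ly6c2, Spic and Gpnmb, so their strand rests on the RefSeq entry alone. C1qa, Siglec1, Adgre1, Csf1r, Msr1, Cd86 and Tyrobp have no entry, and the RefSeq start used lay over 1000 bases from the deposited gene's start for Spic, Fcgr3, Cybb and Lgals3. For Ccr2 and Clec4f it lay 233 and 71 bases inside the deposited gene, so that many bases of their windows belong to the gene as deposited.

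Cd163, Timd4 and Marco had the larger log2 fold changes of the resident markers, between 1.17 and 1.29, though the differences among the 5 were not tested. Cd163 (ENSMUSG00000008845, chromosome 6, 124304656 to 124330527, plus strand), the receptor that clears haemoglobin bound to haptoglobin, was at 27.8, 21.2 and 36.0 CPM in HKO 1, 2 and 3 and at 12.6, 11.3 and 10.7 CPM in WT 1, 2 and 3. The groups did not overlap, and the lowest HKO value was well above the highest WT value. Its log2 fold change was 1.29 (SE 0.19, 95% interval 0.84 to 1.75, adjusted p = 0.00366).

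Timd4 (ENSMUSG00000055546, chromosome 11, 46810800 to 46844332, plus strand), a receptor for phosphatidylserine on dying cells, was at 7.31, 4.71 and 6.24 CPM in HKO and at 2.39, 2.53 and 2.62 CPM in WT. Every HKO library was above every WT library (log2 fold change 1.28, SE 0.22, adjusted p = 0.00658). Marco (ENSMUSG00000026390, chromosome 1, 120474538 to 120505024, minus strand), a scavenger receptor for bacteria and particles, was at 72.0, 43.6 and 68.9 CPM in HKO and at 29.6, 26.6 and 25.6 CPM in WT. The groups were again apart, with HKO 2 the lowest of HKO (log2 fold change 1.17, SE 0.19, adjusted p = 0.00484). Vsig4 (ENSMUSG00000044206, chromosome X, 96247203 to 96293438, minus strand), a receptor for complement C3 fragments, was at 22.8, 15.0 and 19.7 CPM in HKO and at 11.1, 9.66 and 11.1 CPM in WT. It rose by 0.85 on the log2 scale (SE 0.17, adjusted p = 0.0108).

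Clec4f (ENSMUSG00000014542, chromosome 6, 83644542 to 83656187, minus strand), a lectin restricted to Kupffer cells in mouse, rose least of the 5. It was at 54.9, 34.2 and 48.6 CPM in HKO 1, 2 and 3 and at 27.7, 31.6 and 31.0 CPM in WT. The value of HKO 2 lay just above the highest WT value. Its log2 fold change was 0.61 (SE 0.17, 95% interval 0.21 to 1.01, adjusted p = 0.0387). The call was kept without HKO 2 (log2 fold change 0.78, adjusted p = 0.00294) and was lost without any one of the other 5 libraries (adjusted p from 0.0861 to 0.115).

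**Figure D1:**
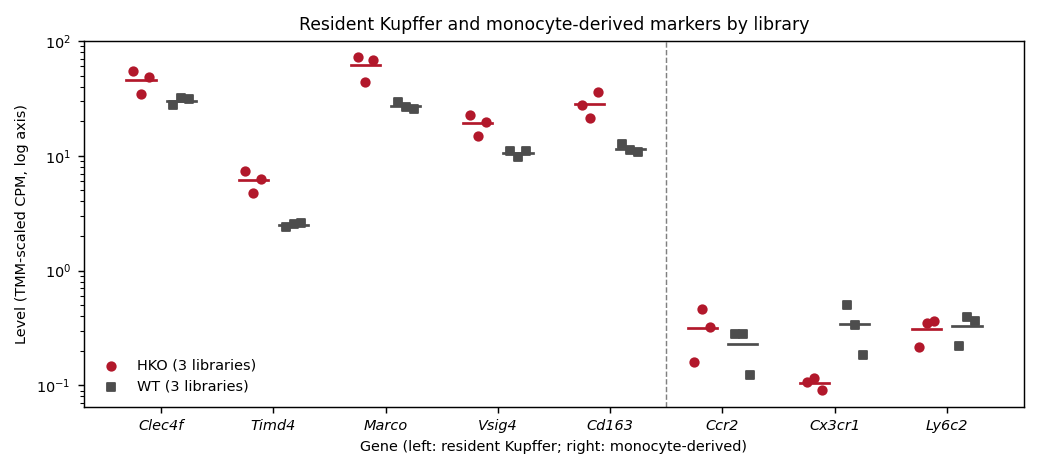
Level of 5 resident Kupffer markers (left of the dashed line) and 3 monocyte-derived markers (right) in each library, in TMM-scaled CPM on a log axis, with HKO libraries as red circles, WT libraries as grey squares and horizontal lines at the means of 3. Each resident marker is higher in all 3 HKO libraries than in all 3 WT libraries, and the monocyte-derived markers lie at or below 0.50 CPM in every library.

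Clec4f was a smaller part of the resident markers in every HKO library than in any WT library. It made up 25.9%, 25.7% and 24.5% of the summed FPKM of the 5 genes in HKO 1, 2 and 3, against 29.3%, 34.5% and 33.7% in WT. FPKM, as deposited by the authors, scales counts by gene length and library total. Marco made up 47.2% ± 1.45 in HKO and 41.0% ± 2.40 in WT, and Timd4 made up 4.37% ± 0.264 in HKO and 3.50% ± 0.217 in WT (SD, n = 3 each). In each of these 3 the groups were apart. The two-sided exact permutation p was 0.10 for each, the smallest that 3 against 3 allows (adjusted p = 0.267 over the 8 shares compared, which include those of the C1q chains). The shares of Vsig4 and Cd163 overlapped between the groups (exact permutation p = 0.300 and 0.200).

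The 3 monocyte-derived markers were too low to pass the filter. Ccr2 (ENSMUSG00000049103, chromosome 9, 124101950 to 124113557, plus strand), the chemokine receptor by which monocytes leave the bone marrow, had 3, 8 and 7 counts in HKO 1, 2 and 3 and 5, 5 and 2 counts in WT. Ly6c2 (ENSMUSG00000022584, chromosome 15, 75108158 to 75111970, minus strand), a surface antigen of inflammatory monocytes, had 4, 6 and 8 counts in HKO and 4, 7 and 6 counts in WT. In both genes the groups overlapped. Cx3cr1 (ENSMUSG00000052336, chromosome 9, 119901616 to 120068283, minus strand), the fractalkine receptor of patrolling monocytes, had 2 counts in each HKO library and 9, 6 and 3 counts in WT.

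Pooled over each group's 3 libraries and scaled for depth, the ratio of HKO to WT was 1.36 for Ccr2 (95% interval 0.618 to 3.08), 0.957 for Ly6c2 (0.465 to 1.98) and 0.301 for Cx3cr1 (0.0979 to 0.792). These exact binomial intervals cover counting error only and not the spread between libraries. Fitted without the filter, Cx3cr1 had an adjusted p of 0.228 (log2 fold change -1.64, unadjusted p = 0.0740) by edgeR, so no difference between the groups was shown. The 3 genes together had 42 counts in HKO and 47 in WT, a ratio of 0.808 (95% interval 0.520 to 1.25). Of the 50-base stretches in Ly6c2 transcripts, 13.9% also occur in Ly6c1, so its counts are uncertain.

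Set against each other within a library, resident markers were further above the 3 monocyte-derived markers in HKO than in WT. The mean log2(CPM + 0.5) of the 5 resident genes minus that of the 3 monocyte-derived genes was 5.46, 4.60 and 5.22 in HKO 1, 2 and 3 and 3.98, 3.91 and 4.15 in WT 1, 2 and 3. The groups were apart, with HKO 2 nearest to WT. The means were 5.09 ± 0.44 in HKO and 4.01 ± 0.12 in WT (SD, n = 3 each), a difference of 1.08. The mean of the resident genes alone differed by 0.97 and that of the monocyte-derived genes by -0.11. The pseudocount is near the level of the monocyte-derived genes, and no test was made of this score over chosen genes.

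The other genes of Kupffer cells and macrophages mostly followed the resident markers. All 11 such genes were tested: 8 rose, none fell, and the median log2 fold change was 0.88. Over all tested genes 12.1% were called higher and 11.2% lower. Without any one library other than HKO 2, 5 of the 11 were called higher, where 5.63% to 8.58% of all tested genes were. Cd5l, a secreted protein of tissue macrophages that binds fatty acid synthase, had the highest level per length of all 35 markers in HKO, at 48.3 ± 15.8 FPKM in HKO and 26 ± 1.66 FPKM in WT (SD, n = 3 each). Its CPM values were 117, 65.8 and 109.5 for HKO 1, 2 and 3, against 52.8, 55.9 and 50 for WT 1, 2 and 3, and the groups were apart (log2 fold change 0.88, SE 0.20, adjusted p = 0.0191). The call of Cd5l was lost without any one library other than HKO 2 (adjusted p from 0.0530 to 0.0813).

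Csf1r encodes the receptor for the growth factors CSF1 and IL34, on which macrophage survival depends. It was at 34.3, 26.4 and 40.2 CPM in HKO and at 17.3, 15.6 and 13.3 CPM in WT, with no overlap (log2 fold change 1.13, SE 0.18, adjusted p = 0.00424). Its exons overlap those of Hmgxb3 on the opposite strand over 15.1% of their length, and the libraries are not described as stranded. Hmgxb3 itself had a log2 fold change of 0.11 (adjusted p = 0.568). Adgre1, the adhesion receptor used as a general mouse macrophage antigen, was at 12.4, 9.13 and 13.6 CPM in HKO and at 6.22, 5.17 and 5.67 CPM in WT (log2 fold change 1.04, adjusted p = 0.00708).

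Folr2, a folate receptor of resident macrophages, rose with a log2 fold change of 1.17 (adjusted p = 0.00694), though 63.1% of its exon bases overlap an antisense gene. Siglec1, a lectin for sialic acids, rose with 0.96 (adjusted p = 0.0270), a call lost without any one library other than HKO 2 (adjusted p from 0.0533 to 0.0960). Spic, a transcription factor gene of iron-recycling macrophages, was low, between 0.465 and 1.28 CPM in HKO and between 0.549 and 1.0 CPM in WT, and the groups overlapped (log2 fold change 0.21, adjusted p = 0.773).

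The 3 chains of C1q, the recognition protein of the classical complement pathway, rose together. Their genes lie side by side on chromosome 4, between 136880129 and 136898803, on the minus strand. C1qb was at 34.2, 21.4 and 28.3 CPM in HKO and at 12.2, 14.1 and 13.2 CPM in WT, with the groups apart (log2 fold change 1.09, SE 0.18, adjusted p = 0.00489). C1qa rose by 0.77 and C1qc by 0.80 on the log2 scale (adjusted p = 0.00767 and 0.0282), and their groups did not overlap either. The call of C1qc was lost without any one library other than HKO 2 (adjusted p from 0.0602 to 0.0985). Per length, C1qb made up 45.9% ± 1.78 of the summed FPKM of the 3 chains in HKO and 40.9% ± 4.09 in WT (SD, n = 3 each), with overlapping groups (exact permutation p = 0.200).

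Mrc1 and Msr1 broke the pattern across the HKO libraries. Mrc1, the mannose receptor gene, is also known as a gene of liver sinusoidal endothelial cells. It was at 25.6, 53.2 and 30.8 CPM in HKO 1, 2 and 3 and at 17.3, 26.1 and 22.1 CPM in WT, and did not pass the test (log2 fold change 0.74, adjusted p = 0.0902, and 0.37 without HKO 2). Msr1, a class A scavenger receptor gene, was at 6.45, 11.2 and 6.52 CPM in HKO and at 6.33, 9.44 and 7.75 CPM in WT (log2 fold change 0.03, adjusted p = 0.940). These 2 were highest of the HKO libraries in HKO 2, the library with the most endothelial and stellate RNA. By contrast 25 of the 29 tested markers, and 18 of the 19 called higher, were at their lowest HKO value in HKO 2. The part of endothelial RNA in the levels of these 2 genes was not tested.

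**Figure D2:**
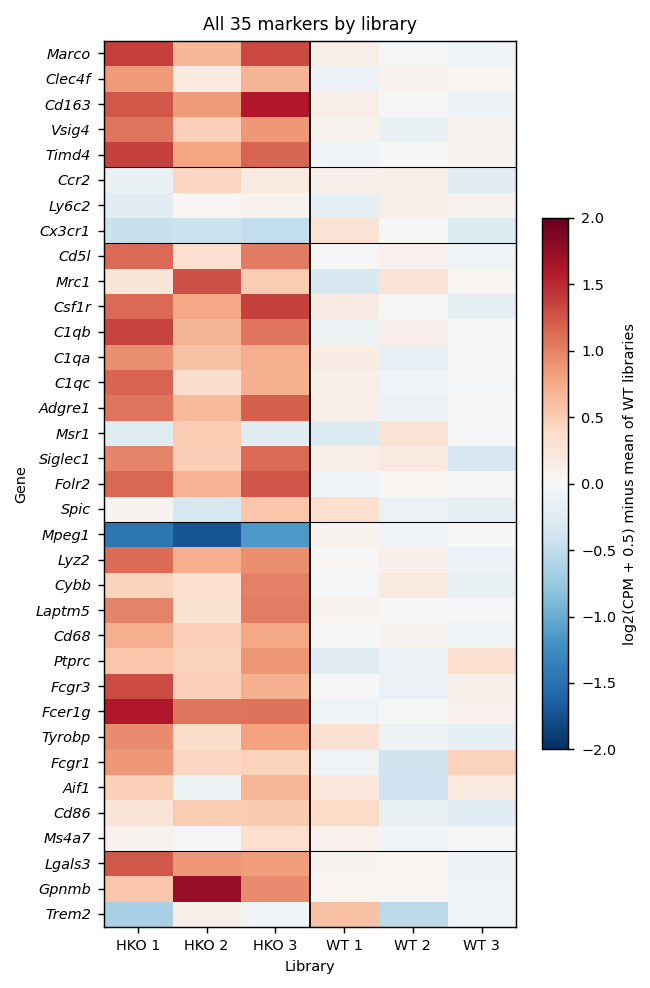
Difference of log2(CPM + 0.5) from the mean of the 3 WT libraries for all 35 markers (rows, grouped from top to bottom as resident Kupffer, monocyte-derived, other Kupffer and macrophage, pan-myeloid, and lipid-associated) in the 3 HKO and 3 WT libraries (columns). Most rows are red in HKO and palest in HKO 2, Mrc1 and Gpnmb are darkest in HKO 2, and Mpeg1 is blue in all 3 HKO libraries.

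Genes shared by macrophages and other myeloid cells rose in part. Of 13 such genes 12 could be tested, and among these 5 rose and 1 fell (median log2 fold change 0.72). The shares over all tested genes were 12.1% called higher and 11.2% lower. Fcer1g, the gamma chain through which Fc receptors signal, had the largest fold change of the 29 tested markers. It was at 5.86, 3.90 and 3.92 CPM in HKO and at 1.5, 1.57 and 1.71 CPM in WT, with the groups well apart (2.86-fold, log2 fold change 1.51, SE 0.26, 95% interval 0.92 to 2.10, adjusted p = 0.00593).

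Lyz2, a lysozyme gene of myeloid cells, was at 31.7, 24.0 and 27.7 CPM in HKO and at 14.5, 15.4 and 13.1 CPM in WT (log2 fold change 0.96, SE 0.14, adjusted p = 0.00289). Of the 50-base stretches in its transcripts 15.4% also occur in Lyz1, which had 0 counts in every library. Cd68, a lysosomal glycoprotein gene, rose with 0.72 (adjusted p = 0.0202), Laptm5, a lysosomal membrane protein gene, with 0.88 (adjusted p = 0.0280) and Fcgr3, an IgG receptor gene, with 1.0 (adjusted p = 0.0372). In all 3 every HKO value was above every WT value. The calls of Cd68, Laptm5 and Fcgr3 were lost without any one library other than HKO 2 (adjusted p from 0.0531 to 0.0847, from 0.0654 to 0.0988 and from 0.0712 to 0.111). Fcgr3 shares 9.58% of its 50-base stretches with Fcgr2b, an inhibitory IgG receptor gene high in sinusoidal endothelium (log2 fold change 0.72, adjusted p = 0.130).

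The 6 that did not pass all had positive log2 fold changes. Tyrobp, the adaptor of many myeloid receptors, Ptprc, which encodes the phosphatase carried by all leukocytes, and Cybb, the catalytic subunit of the phagocyte oxidase, had values of 0.83, 0.71 and 0.65 (adjusted p = 0.0689, 0.0738 and 0.0652). In these 3 the groups were apart, and without HKO 2 Tyrobp and Cybb were called (adjusted p = 0.0257 and 0.0295). Fcgr1, a high-affinity IgG receptor gene, Cd86, a ligand that costimulates T cells, and Aif1, an actin-bundling protein gene, had values of 0.72, 0.59 and 0.48 with overlapping groups (adjusted p = 0.199, 0.275 and 0.403). Ms4a7, a membrane protein gene of macrophages, had 8 counts in HKO and 4 in WT over the group and was not tested.

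Mpeg1 (ENSMUSG00000046805, chromosome 19, 12460779 to 12465284, plus strand), which encodes a pore-forming protein of phagocytes, moved against the rest. It was at 72.9, 59.9 and 89.4 CPM in HKO 1, 2 and 3 and at 209, 191 and 198 CPM in WT 1, 2 and 3. The highest HKO value was far below the lowest WT value. The log2 fold change was -1.43 (SE 0.15, 95% interval -1.77 to -1.09, adjusted p = 8.24e-04), and the gene stayed called lower in each of the 14 alternatives tried, with values between -1.59 and -1.29. Per length it was the highest of the 35 markers in WT, at 46.1 ± 4.48 FPKM, and ranked 6 of 35 in HKO, at 17.2 ± 4.23 FPKM (SD, n = 3 each). It made up 12.5% ± 1.29 of the summed CPM of the 35 markers in HKO and 41.8% ± 1.5 in WT. No other gene's exons overlap it in the GENCODE annotation, and no other gene shared 5% or more of its 50-base stretches. Which cells of these libraries the Mpeg1 RNA came from was not tested.

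**Figure D3:**
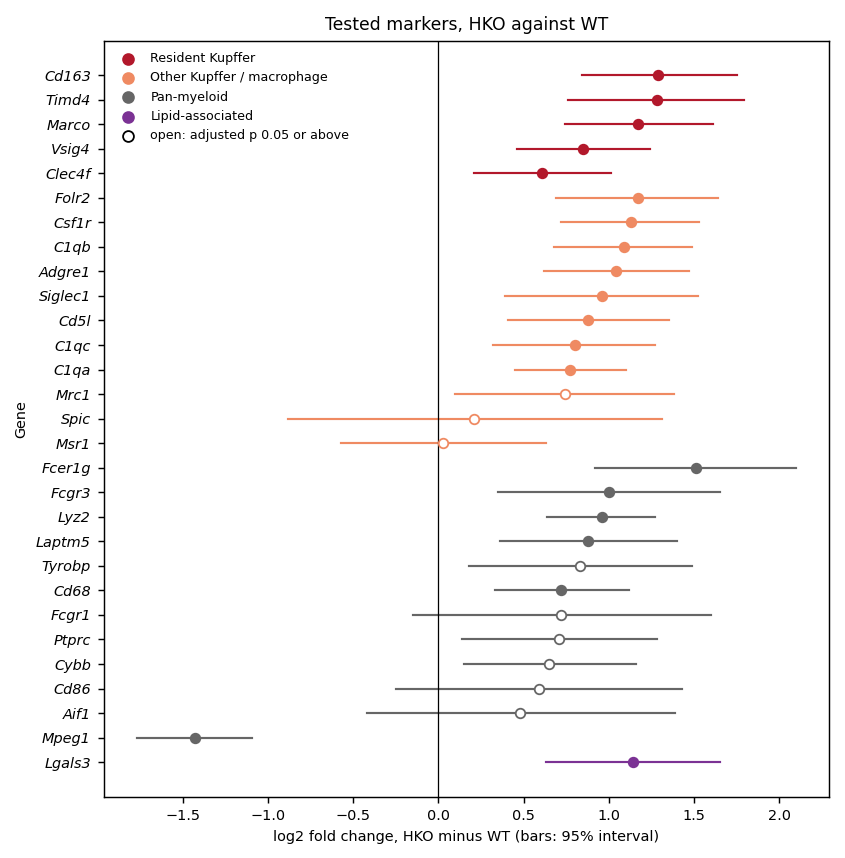
Log2 fold change (HKO minus WT) of the 29 tested markers with 95% intervals from edgeR, coloured by role, with filled points for genes at an adjusted p below 0.05 and open points for the others. The 19 filled points on the right lie between 0.61 and 1.51, and Mpeg1 alone lies on the left, at -1.43.

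Of the 3 genes of lipid-associated and scar macrophages, 1 could be tested. Lgals3, which encodes galectin-3, a lectin that binds galactosides, was at 6.07, 4.54 and 4.47 CPM in HKO and at 2.39, 2.36 and 2.07 CPM in WT, with the groups apart (log2 fold change 1.14, SE 0.22, adjusted p = 0.00954). Gpnmb, a glycoprotein gene of lipid-laden macrophages, had 7, 26 and 14 counts in HKO and 2, 2 and 1 counts in WT. Pooled and scaled for depth its ratio was 8.49 (95% counting interval 3.39 to 27.4), and fitted without the filter its adjusted p was 0.0233 (log2 fold change 3.04). Its highest value was that of HKO 2. Trem2, a lipid-sensing receptor gene, had 3, 11 and 11 counts in HKO and 19, 4 and 8 counts in WT, with overlapping groups (ratio 0.729, counting interval 0.413 to 1.28).

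In level per length, the markers kept much of their order between the groups. In HKO the highest after Cd5l were Marco (30.8 ± 9.18 FPKM), C1qb (25.8 ± 6.98), Lyz2 (22 ± 4.01) and C1qa (20.4 ± 3.41), and the ranges of neighbours in this order overlapped over the libraries (SD, n = 3 each). In WT the order was Mpeg1 (46.1 ± 4.48), Cd5l (26 ± 1.66), Marco (13.6 ± 1.67), C1qb (12.1 ± 0.327) and C1qa (11.9 ± 1.89), where Mpeg1 and Cd5l each stood clear of the next. Clec4f ranked 7 and Vsig4 8 in both groups. The lowest was Cx3cr1 in HKO (0.0152 ± 0.00127 FPKM) and Gpnmb in WT (0.0127 ± 0.00412 FPKM).

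**Figure D4:**
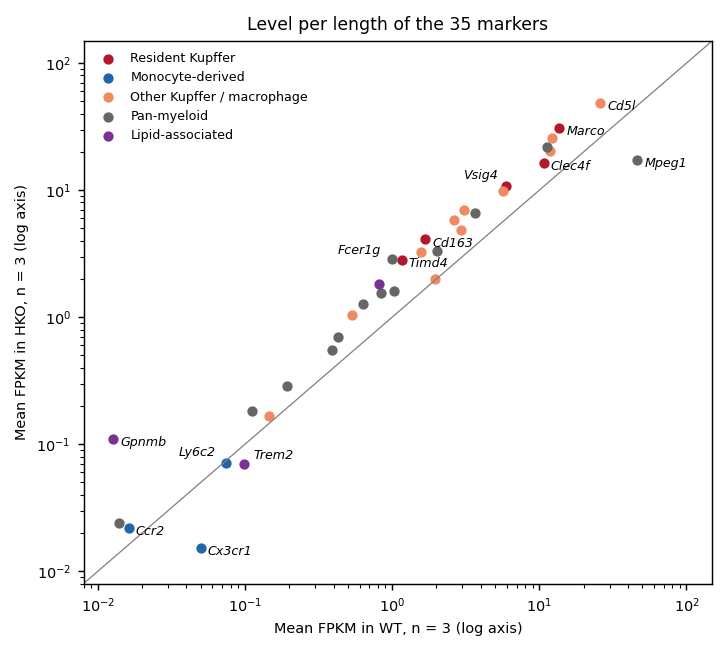
Mean FPKM of each of the 35 markers in HKO (vertical, log axis) against WT (horizontal, log axis), n = 3 libraries each, coloured by role, with the line of equal level. Most markers lie above the line, Mpeg1, Cx3cr1, Trem2 and Ly6c2 lie below it, and the 3 monocyte-derived markers lie below 0.0744 FPKM or at it.

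Counting members whose groups did not overlap, 22 of the 29 tested markers were higher in all 3 HKO libraries than in all 3 WT libraries, where 22.6% of all tested genes were, and 1 was lower, where 21.6% were. Relative to the WT mean, the median of the tested markers was 1.0, 0.50 and 0.86 in HKO 1, 2 and 3 on the log2 scale. Without HKO 2, 21 members were called higher and 1 lower, where 12.5% of all tested genes were higher and 12.2% lower.

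The number called higher was lower without any other single library, as was the share of all genes. It was 13 without HKO 1, where 8.58% of all tested genes were higher and 7.71% lower, and 12 without HKO 3 (7.59% and 7.10%). It was 12 as well without WT 1 (8.49% and 8.24%), without WT 2 (7.44% and 6.98%) and without WT 3 (5.63% and 5.32%). Mpeg1 was the 1 member called lower each time. Of the other fits, DESeq2 called 20 members higher (12.8% of all genes higher and 11.5% lower), limma-voom 18 (11.7% and 11.6%), and the fit with no filter 20 of the 35 (7.71% and 6.85%). With the replicate number as a block it was 16 (9.92% and 8.88%). The all-gene shares were 11.7% and 11.3% with RLE size factors, 10.6% and 9.86% with library totals, 12.2% and 11.2% without mitochondrial genes, and 12.0% and 11.1% with a minimum of 10 counts in 3 libraries.

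Further macrophage genes outside the 35 were summarised by lists. Over all tested genes, 12.1% were called higher and 11.2% lower in HKO, and the shares with each library left out are given above. All 14 further Kupffer cell genes were tested, and 8 rose while none fell (median log2 fold change 0.88). Ptgs1, a cyclooxygenase gene, rose with 1.05, Cfp, which encodes the complement factor properdin, with 1.02 and Hmox1, which breaks down heme, with 0.99 (adjusted p = 0.0250, 0.0122 and 8.58e-04). Without WT 3, 4 of the 14 were called higher, where 5.63% of all tested genes were. The calls of Ptgs1 and Cfp were then lost (adjusted p = 0.0966 and 0.0584). Without WT 2 the count was 5, where 7.44% of all tested genes were higher. Ptgs1 was not called without WT 1 or WT 2 either (adjusted p = 0.0542 and 0.0641). Unlike most of the 35 markers, Ptgs1 was highest in HKO 2, at 17.5 CPM against 9.29 and 9.93 CPM in HKO 1 and HKO 3. Without HKO 2 its log2 fold change was 0.71 (adjusted p = 0.0202).

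Among transcription factor genes of the macrophage lineage, Spi1, which encodes PU.1, averaged 2.98 ± 0.685 CPM over HKO and 1.72 ± 0.0750 CPM over WT libraries (SD, n = 3 each) and did not pass (log2 fold change 0.79, adjusted p = 0.0651). Without HKO 2, Id1 and Id3, which encode inhibitors of helix-loop-helix factors, were called lower (log2 fold change -2.09 and -0.87, adjusted p = 0.00227 and 0.00701), and without WT 1 so was Id3 (-0.78, adjusted p = 0.0433).

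Of 16 tested colony-stimulating factor and niche genes 4 rose and none fell, where 12.1% of all tested genes rose and 11.2% fell. Il34, a ligand of the Csf1r receptor, was at 0.967, 2.21 and 1.05 CPM in HKO and at 0.333, 0.169 and 0.549 CPM in WT (log2 fold change 1.99, adjusted p = 0.0344). Bmp10, a ligand of the endothelial receptor ALK1, and Csf3r, a receptor gene of neutrophils, had values of 1.59 and 1.78 (adjusted p = 0.0416 and 0.0429). Tgfbr2, a receptor gene for TGF-beta, rose with 0.79 (adjusted p = 0.0100). Il34, Bmp10 and Csf3r were highest in HKO 2, and their calls were lost without it (adjusted p = 0.0616, 0.0576 and 0.0877), as was that of Il34 without any other library (0.0528 to 0.105). Tgfbr2 alone was called without HKO 2 or without WT 2, and no gene of the list without WT 3. The calls were Bmp10 and Tgfbr2 without HKO 1, and Csf1 and Tgfbr2 without WT 1. Csf1, the other ligand, averaged 10.8 ± 1.48 CPM over HKO and 7.29 ± 1.59 CPM over WT libraries (SD, n = 3 each; log2 fold change 0.56, adjusted p = 0.0720).

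Of 16 other monocyte genes 6 could be tested, with log2 fold changes from 0.65 to 2.34 (median 0.98). Against 12.1% of all tested genes, 2 of these 6 were called higher. These were Nr4a1, a nuclear receptor gene needed by patrolling monocytes that is also an immediate early gene (log2 fold change 2.34, adjusted p = 0.00138), and Itgal, an integrin subunit gene of leukocytes (0.70, adjusted p = 0.0318). Itgal kept its call only without HKO 2 among the 6 libraries left out in turn (adjusted p from 0.0673 to 0.105 otherwise), leaving 1 gene called. Of 10 tested genes of innate sensing, Cd14, a co-receptor for lipopolysaccharide, rose with 1.31 (adjusted p = 0.0116), and the other 9 did not pass. This 1 of 10 was near the 12.1% of all tested genes called higher. Without WT 3 the call of Cd14 was lost (adjusted p = 0.0548).

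Of other immune cells, genes of antibody chains rose and most other markers were low. Ighm, the heavy chain gene of IgM, was at 14.5, 11.9 and 12.6 CPM for HKO 1, 2 and 3, against 0.167, 0.730 and 0.976 CPM for WT 1, 2 and 3. No HKO value came near a WT value (log2 fold change 4.38, adjusted p = 5.48e-04). Igkc, a light chain gene, and Jchain, which joins antibody units in plasma cells, rose too (3.59 and 2.85, adjusted p = 7.43e-04 and 0.00447), while Ly6d, listed as a B lineage gene, fell (-0.63, adjusted p = 0.0117). The B cell genes Cd79a, Cd79b and Ms4a1 were at most 0.183 CPM in any library. The part of plasma or B cell RNA in the macrophage markers was not tested.

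The summed level of 10 neutrophil markers was between 1.18 and 4.88 CPM in HKO and between 0.674 and 0.778 CPM in WT, with Ly6g, Camp and Ngp at 0 throughout. That of 12 T and NK cell markers was between 0.775 and 2.27 CPM in HKO and between 0.333 and 1.71 CPM in WT, with Cd3d and Cd8a at 0. That of 11 dendritic cell markers was between 14.2 and 28.8 CPM in HKO and between 7.39 and 12.0 CPM in WT, with Cd209a and Ccr7 at 0, and none of its 4 tested genes was called. That of the 5 resident Kupffer markers was between 119 and 185 CPM in HKO and between 81.1 and 83.3 CPM in WT. Several of the pan-myeloid genes are also expressed by neutrophils and dendritic cells, whose part in their levels was not tested.

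**Figure D5:**
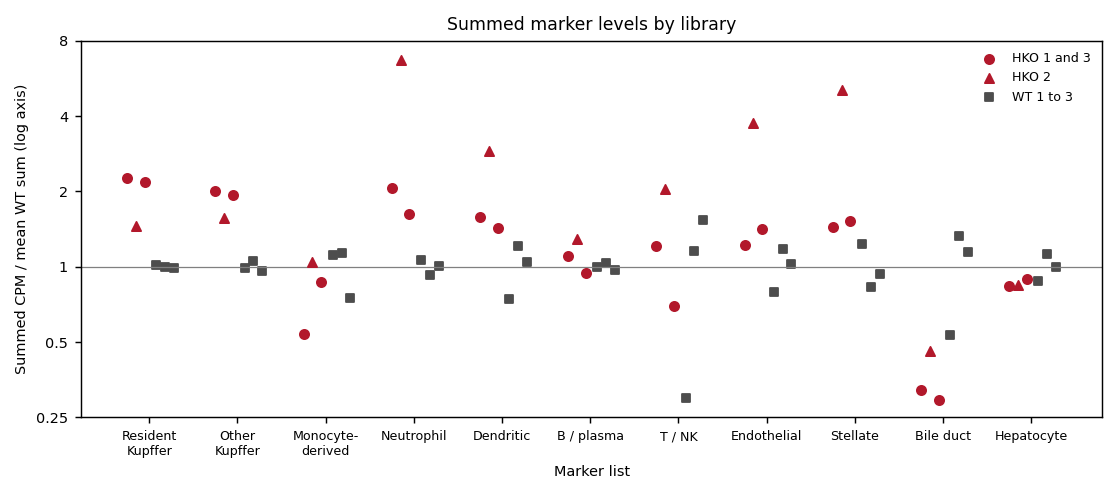
Summed CPM of each marker list, divided by the mean sum of the 3 WT libraries (log axis), for HKO 1 and HKO 3 (red circles), HKO 2 (red triangle) and WT 1 to 3 (grey squares). HKO 2 is the lowest HKO library in both Kupffer lists and by far the highest in the endothelial and stellate lists, at 872 and 701 CPM.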

How the data were processed

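HISAT2 (version 2.0.4) and StringTie (version 1.3.0) are named as tools, and mm10 and GRCm38.p4 as builds, per the submitters' processing notes, which give no settings here. The authors deposited raw read counts and FPKM values for each of 34745 Ensembl genes in each of 6 libraries, per the file headers. The labels' protocols describe mRNA libraries with no strand-marking step. Members and lists were chosen with earlier results of these data known.

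The tests used edgeR 4.0.16 (under R 4.3.3) on the counts: filterByExpr (12556 genes kept), TMM scaling, and the quasi-likelihood test of HKO against WT on all 6 libraries, with Benjamini-Hochberg adjustment over all genes tested. Standard errors are the absolute log2 fold change over the square root of F. The fit was tested on simulated counts. All 35 members are described, and of each further macrophage list the 3 called genes with the largest absolute fold change are named. Alternatives were other scalings and filters, DESeq2 1.42.0, limma-voom (limma 3.58.1), a replicate block and each library left out. Exon overlaps and shared 50-base stretches come from GENCODE M21 (GRCm38), and promoter sequences from RefSeq (GRCm38.p6). Coordinates count from 1. Protein sequences were not used here. Some results on the further lists are not reported here.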

Additional observations from a re-analysis of the deposited data

How the results depend on the processing

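The counts over all genes were 1516 higher and 1401 lower. With the other scalings, filters, DESeq2, limma-voom and the replicate block both stayed within 1.5 times these values. With each library left out in turn they ranged from 722 to 1589 higher and from 682 to 1546 lower, and the number of members called higher ranged from 12 to 21 around 19, always with 1 lower. In all 14 alternatives 12 members were called higher, and Mpeg1 lower. Clec4f, Cd5l, C1qc, Siglec1, Cd68, Fcgr3 and Laptm5 lost their calls without any one library but HKO 2, which leaves fewer samples. With a replicate block 1245 genes were higher and 1115 lower, and 16 members were higher, with Clec4f, Siglec1, Cd68 and Fcgr3 lost (adjusted p = 0.0653, 0.0604, 0.0561 and 0.0537) and Mrc1 gained (0.0232). Deviations of same-numbered libraries correlated at -0.00192, 0.00248 and 0.0717, and those of differently numbered libraries at -0.0764 to 0.0556. No pairing by number was seen, though 3 libraries per group cannot exclude one. Limma-voom called 18 members higher, without Fcgr3, and DESeq2 20, with Mrc1 (adjusted p = 0.0335). With no filter on low counts 20 were higher, Gpnmb among them. The sign of Msr1, which was never called, turned with limma-voom (-0.02), without HKO 2 (-0.27) and without WT 1 (-0.11), and that of Spic without HKO 3 (-0.24). With each library left out they ranged from -0.27 to 0.19 and from -0.24 to 0.51. The cause was not tested. The gap between resident and monocyte-derived genes, 1.08, ranged from 0.89 to 1.33 with each library left out and was 1.26 and 0.90 with pseudocounts of 0.1 and 2 CPM. Depth limits Ccr2, Cx3cr1, Ly6c2, Ms4a7, Trem2 and Gpnmb, each with at most 47 counts over a group. Leaving libraries out for the further macrophage lists was chosen after seeing the data.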
